A study of Mus musculus with 6 samples.

Results

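The integrin and laminin genes of the mouse mammary gland were compared between MMTV-FOXC1 transgenic and wildtype mice. The set holds 36 of the 21950 genes in the table, found by gene name: 8 leukocyte integrins, 18 epithelial and matrix integrins, and 10 laminin chains. The transgenic mice carried a human FOXC1 cDNA with a Myc tag behind the mouse mammary tumor virus (MMTV) promoter, which is hormone responsive and drives the transgene in luminal epithelial cells. The wildtype mice lacked it. Both genotypes were FVB/NJ mice at postnatal week 11 and lactation day 2, and neither received an agent. RNA came from slides of whole mammary tissue, although the labels name the source as epithelial cells. How many animals or transgenic lines gave the RNA is not stated in the sources used here.

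Expression was given as RPKM, reads scaled to the exonic length of a gene and to the library, with 3 columns for each genotype. The depth recovered from the values was 11770867 to 11775866 reads in the transgenic columns and 3492861 to 3496335 reads in the wildtype columns. The 3 columns of a genotype differed by about what counting alone gives, with a chi-square per degree of freedom of 1.05 in transgenic and 1.02 in wildtype columns, and were therefore counted as 1 library. Each genotype thus has n = 1, no test between genotypes was run, and every interval below covers the counting error of these libraries only. The 8 milk protein genes took 0.232% of the transgenic and 42.3% of the wildtype reads. The RPKM of most other genes was higher in the transgenic library. Scaling on the reads outside these 8 genes gave a factor of 1.73. The median of ratios over 14680 genes was larger, at 2.23 (1.16 on the log2 scale), and what made up the difference was not tested. Changes are therefore given as a relative log2 change, log2 of the mean transgenic RPKM divided by 2.23 plus 1, over the mean wildtype RPKM plus 1, and beside it as the change on RPKM as deposited. A gene was kept if its mean reached 2 RPKM in either genotype, which 13118 genes did, and it was called higher or lower if its log2 change passed 2 in size. The median over all kept genes was 0.095 on the relative scale and 1.06 on RPKM as deposited. As a check of the genotype, the mouse Foxc1 gene had 9.45, 9.56 and 8.21 RPKM in the transgenic columns, against 2.53, 1.66 and 2.90 RPKM in the wildtype columns, a relative log2 change of 0.59 that does not reach a call. How much of the human transgene that row holds was not tested.

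Integrins are surface receptors made of an alpha and a beta chain, which join the cytoskeleton to the extracellular matrix or to ligands on other cells. Laminins are heterotrimers of an alpha, a beta and a gamma chain that form the sheet of the basement membrane under an epithelium. In the mammary gland, luminal and myoepithelial cells hold on to laminin through integrins that contain the beta chain Itgb1 or Itgb4, and signals through Itgb1 are needed for milk protein expression. The integrins built on Itgb2 and Itgb7 are found on leukocytes, where they carry adhesion to endothelium, to epithelium and to other leukocytes.

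On the relative scale, 4 members were called higher in transgenic glands (Itgb7, Itgb2, Itgal and the laminin gamma chain Lamc3) and 0 were called lower. These are 4 of the 32 members that were kept, while 3.29% of all kept genes were called higher and 2.87% lower. Leukocyte integrins made up 3 of these 4 calls. No epithelial or matrix integrin was called, and the chains of that group ranged from -1.10 to 1.45. All 10 laminin chains lay above 0, between 0.15 and 2.08. On RPKM as deposited, 8 members were called higher and 0 lower, against 16.1% of kept genes called higher and 1.23% lower. These were the same 4 genes and Lama2, Itga7, Lama3 and Lamb2. Every transgenic column lay above every wildtype column for 29 of the 32 kept members and below for 1, beside 83.6% and 9.67% of all kept genes. The 4 relative calls depended on the pseudocount, since 0 members were called with a pseudocount of 5 RPKM in place of 1, when 62 of all genes were still called higher. The 4 members under the filter were Itgad, Itga10, Itgb6 and Itga2b.

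**Figure D1:**
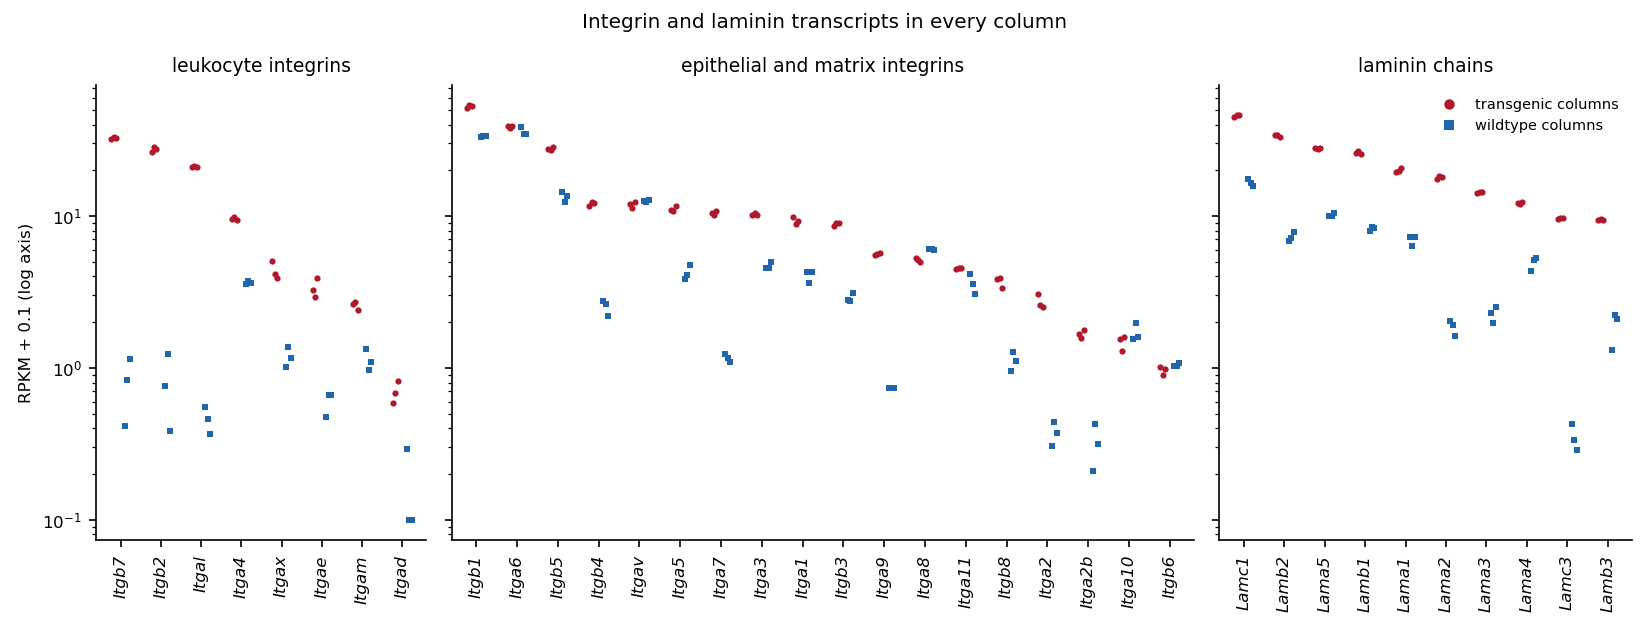
RPKM plus 0.1 on a log axis for the 36 members, in the 3 transgenic (red circles) and the 3 wildtype columns (blue squares), in 3 panels by group and ordered by the transgenic mean. Itgb7, Itgb2 and Itgal lie between 20.8 and 33.0 RPKM in transgenic columns and at or below 1.12 RPKM in wildtype columns, while Itga6 and Itgav lie at about the same height in both.

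The leukocyte integrins divided into 3 chains with large changes and others with smaller ones. The pseudocount shrinks the changes of chains with low RPKM, so relative ratios without it are given as well. Itgb7 is the beta chain that pairs with Itga4 to bind the addressin Madcam1 and with Itgae to bind E-cadherin. It had 32.0, 33.0 and 32.7 RPKM in the transgenic columns, against 0.313, 0.730 and 1.04 RPKM in the wildtype columns. Its relative log2 change was 3.20 (4.31 as deposited), the 57th in rank of the 13118 kept genes. Without a pseudocount, this was a 20.98-fold relative ratio (95% interval 13.6 to 34.4), from 3154 transgenic and 20 wildtype reads. The gene lies on chromosome 15 from 102215995 to 102231944 on the minus strand (GRCm38). The wildtype columns scattered as few reads do. Every transgenic column lay above every wildtype column, which also held for 83.6% of all kept genes.

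Itgb2 (CD18) is the common beta chain of the leukocyte integrins LFA-1 and Mac-1, and Itgal (CD11a) is the alpha chain of LFA-1, which holds lymphocytes to Icam ligands. Itgb2 had 26.3, 28.3 and 27.4 RPKM in transgenic columns, against 0.656, 1.12 and 0.281 RPKM in wildtype columns. Its relative log2 change was 2.97 (4.07 as deposited), with a relative ratio of 17.8 (interval 11.8 to 28.5). Itgal had 20.95, 21.3 and 20.8 RPKM in transgenic columns, against 0.449, 0.359 and 0.269 RPKM in wildtype columns. Its relative log2 change was 2.94 (4.02 as deposited), with a relative ratio of 26.3 (interval 17.6 to 41.0). Both chains of LFA-1 were thus more than an order of magnitude higher in the transgenic library, and neither overlapped between the genotypes. Among all kept genes, 83.6% likewise had every transgenic column above every wildtype column. Itgb2 lies on chromosome 10 (77530252 to 77565708, plus strand) and Itgal on chromosome 7 (127296260 to 127335138, plus strand).

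Of the other alpha chains that pair with Itgb2, Itgam and Itgax changed far less, and Itgad had too few reads to place. Itgam (CD11b), the alpha chain of Mac-1 on macrophages and neutrophils, had 2.52, 2.61 and 2.29 RPKM in transgenic columns, against 1.23, 0.861 and 0.999 RPKM in wildtype columns. That is a relative log2 change of 0.06 and a relative ratio of 1.08 (interval 0.837 to 1.41). Other genes share 68.7% of the exonic bases of Itgam, so its reads are uncertain. Itgax (CD11c), found on dendritic cells and some macrophages, had 4.95, 4.07 and 3.82 RPKM in transgenic columns, against 0.920, 1.27 and 1.06 RPKM in wildtype columns. That is a relative log2 change of 0.49 and a relative ratio of 1.77 (interval 1.31 to 2.44). Itgad (CD11d) stayed under the filter, with 95 reads in the transgenic and 3 in the wildtype library and 19.7% of its exonic bases shared. Its relative ratio was 4.21, with an interval from 1.40 to 20.8 that overlaps that of Itgb2. Itgal, Itgam, Itgax and Itgad lie on the same chromosome, and the last 3 lie together between 128062640 and 128223816.

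Of the partners of Itgb7, neither was called. Itga4, which also pairs with Itgb1 and binds Vcam1 on endothelium, had 9.39, 9.73 and 9.32 RPKM in transgenic columns, against 3.45, 3.63 and 3.53 RPKM in wildtype columns. With 4643 transgenic and 514 wildtype reads it was the deepest of the leukocyte integrins in the wildtype library, and its relative log2 change was 0.21 (relative ratio 1.202, interval 1.10 to 1.32). Itgae (CD103), the chain of lymphocytes lodged in epithelia, had 3.13, 2.84 and 3.80 RPKM in transgenic columns, against 0.375, 0.562 and 0.562 RPKM in wildtype columns. Its relative log2 change was 0.71, the middle value of the 7 kept leukocyte integrins.

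Ratios between genes of the same library do not depend on the scaling between libraries. Itgal over Itgb2 was 0.769 in the transgenic and 0.522 in the wildtype library, a ratio of ratios of 1.47 whose interval (0.786 to 2.75) includes 1. Itgam over Itgb2 was 0.0905 in the transgenic and 1.496 in the wildtype library, and the ratio of ratios was 0.0605 (0.0353 to 0.1002). Itgax over Itgb2 gave 0.0993 (0.0565 to 0.1701) and Itgae over Itgb7 gave 0.139 (0.0724 to 0.265). Itgad over Itgb2 gave 0.236, with an interval from 0.0693 to 1.26. The beta chains of leukocytes thus stood apart from every partner but Itgal and, within its wide interval, Itgad.

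Markers of leukocytes moved with these 3 chains. All 5 general leukocyte markers were called higher on the relative scale, beside 3.29% of all kept genes. Their summed level was 298 to 301 RPKM in transgenic and 6.47 to 7.83 RPKM in wildtype columns. The 6 B cell markers summed to 169 to 173 RPKM in transgenic and 6.62 to 8.32 RPKM in wildtype columns, with 4 called higher. The 6 T cell markers summed to 176 to 186 RPKM in transgenic and 9.95 to 11.4 RPKM in wildtype columns, also with 4 called higher. Of the 6 macrophage and monocyte markers, 2 were called higher (Cd68 and Lyz2), with sums of 277 to 283 RPKM in transgenic and 19.1 to 22.4 RPKM in wildtype columns. The 6 neutrophil markers summed to 45.4 to 47.0 RPKM in transgenic and 115 to 123 RPKM in wildtype columns, most of it Ltf, which is also a milk protein, and Ly6g was at 0 in every column. In a bulk sample, a different number of cells of a type and a different amount of RNA per cell cannot be told apart. The paper describes removal of lymph nodes, before digestion, from number 4 glands taken for RNA analysis. Whether the slides sequenced here held lymph node tissue is not stated and was not tested.

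Against Ptprc (CD45), the surface marker of leukocytes, the 3 called chains were higher, but this depended on the marker. The relative ratio of Ptprc was 9.74, the lowest of the 5 general leukocyte markers, whereas Coro1a had 41.2 and Cd52 had 32.05, both above Itgal, Itgb7 and Itgb2. The ratio of Itgal to Ptprc was 0.634 in transgenic and 0.235 in wildtype libraries (ratio of ratios 2.697, interval 1.77 to 4.28). Itgb7 over Ptprc gave 2.15 (1.37 to 3.58) and Itgb2 over Ptprc 1.83 (1.18 to 2.97). The other chains had a lower ratio to Ptprc in the transgenic library, with 0.123 for Itga4 (0.106 to 0.143), 0.111 for Itgam (0.0835 to 0.148), 0.182 for Itgax (0.131 to 0.256) and 0.2999 for Itgae (0.196 to 0.480). For Itgad the interval was 0.142 to 2.15. The part of the leukocyte markers in the changes of these chains was not tested further.

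**Figure D2:**
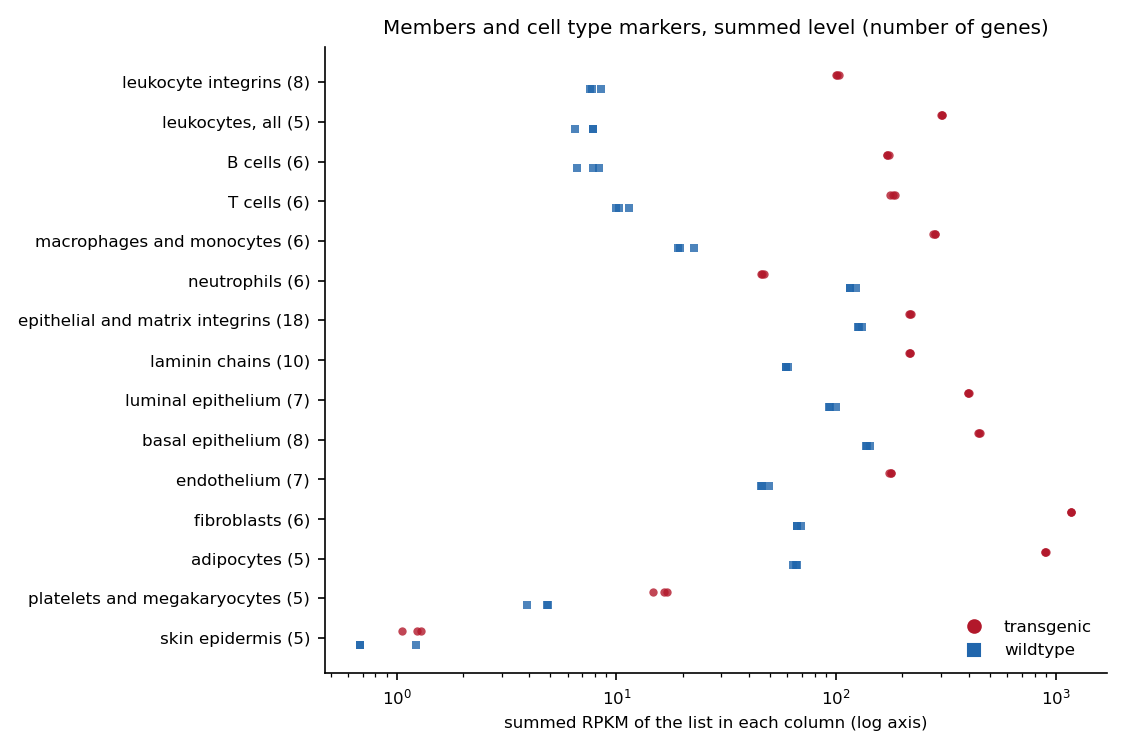
Summed RPKM on a log axis of the 3 member groups and of 12 marker lists in each column, transgenic (red circles) above wildtype (blue squares), with the number of genes of each list in brackets. Leukocyte integrins lie at 99.8 to 102 RPKM in transgenic and 7.58 to 8.54 RPKM in wildtype columns, and skin epidermis markers stay at or below 1.29 RPKM in all of them.

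The promoters of 3 leukocyte integrins are shown because 1 of them, Itgb7, was called and the other 2, its partner Itga4 and the Itgb2 partner Itgam, were not. Each is the RefSeq window of GRCm38.p6 from 250 bases before to 50 after the transcription start, in the direction of the gene. Capitals mark GAGGAA, the core bound by PU.1 and other ETS factors, or TGTGGT, the core bound by Runx factors, on either strand.
Itgb7, chr15:102231886-102232185, minus strand: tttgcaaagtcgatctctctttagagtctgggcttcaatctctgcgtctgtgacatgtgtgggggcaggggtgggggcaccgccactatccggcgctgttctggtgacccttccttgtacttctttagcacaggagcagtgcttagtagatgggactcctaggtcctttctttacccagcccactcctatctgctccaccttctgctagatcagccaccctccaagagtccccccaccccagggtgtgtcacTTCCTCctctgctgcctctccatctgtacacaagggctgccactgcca
Itga4, chr2:79255176-79255475, plus strand: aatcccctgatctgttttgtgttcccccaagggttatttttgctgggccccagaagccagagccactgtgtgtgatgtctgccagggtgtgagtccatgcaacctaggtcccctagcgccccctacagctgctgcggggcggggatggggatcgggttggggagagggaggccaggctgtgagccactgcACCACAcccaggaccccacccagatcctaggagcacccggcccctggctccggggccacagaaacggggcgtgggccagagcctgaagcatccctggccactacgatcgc
Itgam, chr7:128062390-128062689, plus strand: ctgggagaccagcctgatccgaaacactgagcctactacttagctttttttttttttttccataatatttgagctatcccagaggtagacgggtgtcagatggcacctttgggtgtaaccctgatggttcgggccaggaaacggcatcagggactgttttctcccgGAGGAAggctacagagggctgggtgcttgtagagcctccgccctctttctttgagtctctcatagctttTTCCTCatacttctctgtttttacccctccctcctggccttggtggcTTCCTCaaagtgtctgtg

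Itgb7 holds the ETS letters once, just after its start, and Itgam holds them 3 times, whereas Itga4 holds the Runx letters once and no ETS letters. Of the genes called on the relative scale, only Itgb7 had a window, while Itgb2, Itgal and Lamc3 had none. Windows were found for 23 of the 36 members, 26 in all. GAGGAA was in 14 of these (53.8%) and in 28.3% of all 32851 promoter windows, with 2 of 4 windows of leukocyte integrins, 7 of 16 of epithelial and matrix integrins and 5 of 6 of laminin chains. TGTGGT was in 3 member windows (11.5%) and in 16.8% of all. The forkhead letters GTAAACA, of the family FOXC1 belongs to, were in 0 of 26 member windows and in 3.65% of all. No motif contains another.

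The ligands of leukocyte integrins include 1 call on the relative scale. Icam1, the endothelial and leukocyte ligand of LFA-1, had 17.2 RPKM in transgenic and 0.977 RPKM in wildtype libraries, a relative log2 change of 2.14. Of the 6 ligands 4 were kept, all of them above 0. Vcam1, the ligand of Itga4 integrins on activated endothelium, had 7.09 RPKM in transgenic and 0.731 RPKM in wildtype libraries, a relative log2 change of 1.27 that was not a call. Madcam1, the ligand of Itga4 with Itgb7, had 100 reads in the transgenic and 1 in the wildtype library and stayed just under the filter at 1.99 RPKM. Cdh1 (E-cadherin), the epithelial ligand of Itgae, changed by 0.42. On RPKM as deposited 3 ligands were called higher. The shares of all kept genes called higher were 3.29% on the relative scale and 16.1% as deposited.

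The epithelial and matrix integrins held the most abundant chains, and their median relative log2 change was 0.05 over the 15 kept, with 8 above 0 and 7 below. Itgb1, the beta chain of most laminin, collagen and fibronectin receptors, had 51.5, 53.5 and 53.0 RPKM in transgenic columns, against 32.9, 33.7 and 33.4 RPKM in wildtype columns. Its relative log2 change was -0.48 (0.64 as deposited), so its direction turned with the scaling. Itga6, which pairs with Itgb1 or Itgb4 to bind laminin, had 39.0, 38.0 and 38.8 RPKM in transgenic columns, against 38.6, 34.4 and 34.7 RPKM in wildtype columns. Its columns overlap on RPKM as deposited (0.10), and its relative log2 change was -1.01. Itga6 and Itgb1 were the first and second integrins in the wildtype library and the second and first in the transgenic one, where Itgb7 ranked 3 of 26.

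Itgb4, which forms hemidesmosomes with Itga6, went the other way from its partner on the relative scale, but not on RPKM as deposited. As deposited, both changes lay above 0, at 1.92 for Itgb4 and 0.10 for Itga6. Itgb4 had 11.5, 12.2 and 12.1 RPKM in transgenic columns, against 2.66, 2.53 and 2.09 RPKM in wildtype columns. Its relative log2 change was 0.89 (relative ratio 2.21, interval 1.90 to 2.58). Itga6 over Itgb4 was 3.23 in the transgenic and 14.8 in the wildtype library, with a ratio of ratios of 0.218 (0.186 to 0.255). Against markers of epithelium, the direction depended on the one chosen. Itgb4 had a ratio of ratios of 0.630 (0.516 to 0.770) to the luminal Krt8, 2.10 (1.63 to 2.71) to the basal Krt14 and 2.52 (2.11 to 3.02) to the epithelial adhesion molecule Epcam. Itga6 was lower against all 3 (0.138, 0.459 and 0.551).

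No marker of epithelium was called on the relative scale, although some changed more than Itgb4. The 7 luminal markers ranged from -0.95 (Cldn7) to 1.74 (Krt8), and they summed to 398 to 402 RPKM in transgenic and 92.7 to 99.97 RPKM in wildtype columns. The 8 basal markers ranged from -0.10 (Krt17) to 1.40 (Krt5), with sums of 443 to 451 RPKM in transgenic and 137 to 142 RPKM in wildtype columns. The 5 skin epidermis markers, whose cells also form hemidesmosomes, were all under the filter. They summed to 1.06 to 1.29 RPKM in transgenic and 0.683 to 1.23 RPKM in wildtype columns, and Ivl was at 0 in every column. The part of the epithelial markers in these values was not tested.

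Itgav, the alpha chain of vitronectin receptors, had 11.9, 11.2 and 12.2 RPKM in transgenic columns, against 12.4, 12.2 and 12.7 RPKM in wildtype columns, and the lowest relative log2 change of all members (-1.10). Itga8, a partner of Itgb1 found on mesenchymal and smooth muscle cells, was next at -1.09. It had 5.19, 5.04 and 4.87 RPKM in transgenic columns, against 5.999, 5.96 and 5.88 RPKM in wildtype columns. It was the single kept member whose transgenic columns were all lower as deposited. Among the beta chains that pair with Itgav, Itgb5 changed by -0.10, Itgb3 by 0.37 and Itgb8 by 0.38 on the relative scale. Itgb6, an epithelial chain that activates TGF-beta, was under the filter at 0.865 RPKM in transgenic and 0.945 RPKM in wildtype libraries.

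Itga7, a laminin receptor chain of muscle cells, was the only matrix integrin called on RPKM as deposited. It had 10.3, 10.1 and 10.7 RPKM in transgenic columns, against 1.14, 1.07 and 0.999 RPKM in wildtype columns. Its log2 change was 2.46 as deposited and 1.45 on the relative scale, with a relative ratio of 4.34 (3.23 to 5.97). Itga9, the next, lay just outside the threshold as deposited (2.00 after rounding) and at 1.09 on the relative scale. Among the collagen receptor chains, Itga2 changed by 0.77, Itga1 by 0.05 and Itga11 by -0.58, and Itga10 was under the filter, with 33.5% of its exonic bases shared with other genes. The fibronectin receptor chain Itga5 changed by 0.21, and Itga3, a laminin receptor chain of epithelia, by -0.01. Itga2b, the chain of platelets, was under the filter at 1.58 RPKM in transgenic and 0.216 RPKM in wildtype libraries. The 5 platelet markers, Itga2b among them, summed to 14.6 to 16.9 RPKM in transgenic and 3.90 to 4.86 RPKM in wildtype columns, with none called.

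**Figure D3:**
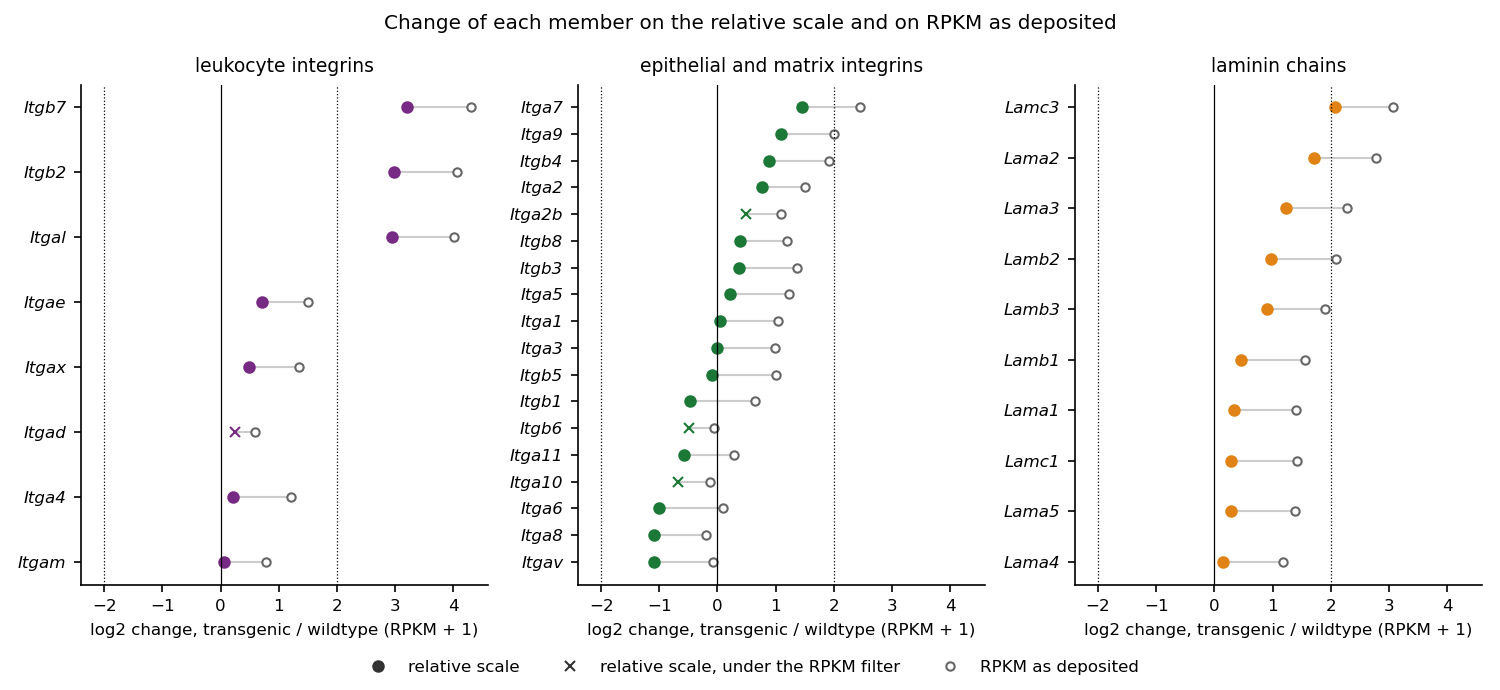
The log2 change of each member, transgenic over wildtype with a pseudocount of 1 RPKM, on the relative scale (filled circles, or crosses for members under the filter) and on RPKM as deposited (open circles). Dotted lines mark the threshold of 2 in size. Itgb7, Itgb2, Itgal and Lamc3 pass it on both scales, and 4 further members only as deposited.

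Shares within a library were also compared. Leukocyte integrins made up 31.8% of the summed integrin RPKM in transgenic columns (31.5% to 32.2%) and 5.86% in wildtype columns (5.46% to 6.37%). Among beta chains, Itgb1 had 31.9% in transgenic and 60.4% in wildtype columns, Itgb7 had 19.7% in transgenic and 1.26% in wildtype columns, and Itgb2 had 16.5% in transgenic and 1.25% in wildtype columns. Among alpha chains, Itga6 had 25.3% in transgenic and 44.4% in wildtype columns, and Itgal had 13.8% in transgenic and 0.443% in wildtype columns. A share falls when other chains are added, so a lower share of Itgb1 does not by itself mean a lower level. Its level was higher as deposited (log2 change 0.64) and lower on the relative scale (-0.48).

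**Figure D4:**
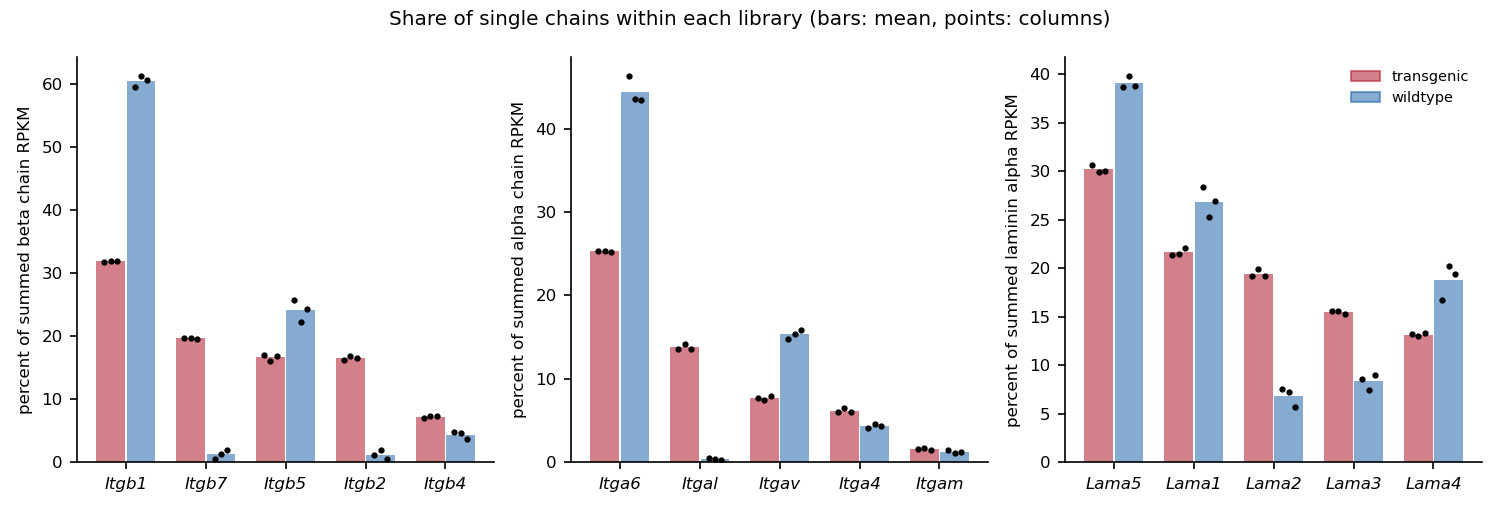
Percent of the summed RPKM of integrin beta chains, integrin alpha chains and laminin alpha chains taken by 5 chains each, transgenic (red) left of wildtype (blue), with bars for the mean and points for the 3 columns. Itgb1 and Itga6 had the largest wildtype shares at 60.4% and 44.4%, and Itgb7 takes 19.7% of the transgenic and 1.26% of the wildtype beta chains.

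All 10 laminin chains were kept, and their median relative log2 change was 0.68 (1.73 as deposited). Lamc3, a gamma chain of limited distribution, was the 1 laminin called on the relative scale. It had 9.47, 9.58 and 9.59 RPKM in transgenic columns, against 0.329, 0.235 and 0.188 RPKM in wildtype columns. Its relative log2 change was 2.08 (3.08 as deposited), just inside the threshold, and its relative ratio was 17.1 (interval 10.5 to 29.9), with 16 reads in the wildtype library. It lies on chromosome 2 from 31887291 to 31946539 on the plus strand. Lamc1, the common gamma chain and the most abundant laminin in both libraries, had 45.6 RPKM in transgenic and 16.5 RPKM in wildtype libraries and changed by 0.29. Lamc3 over Lamc1 was 0.209 in the transgenic and 0.0152 in the wildtype library, a ratio of ratios of 13.8 (8.43 to 24.2).

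The alpha chains, which carry the integrin binding site, differed in size. Lama2, the chain of laminins in muscle and nerve, had 17.4, 18.3 and 17.8 RPKM in transgenic columns, against 1.93, 1.80 and 1.52 RPKM in wildtype columns, a relative log2 change of 1.71 (2.78 as deposited). Lama3, the chain of laminin in hemidesmosomes, had 14.1, 14.3 and 14.2 RPKM in transgenic columns, against 2.18, 1.86 and 2.40 RPKM in wildtype columns, a relative log2 change of 1.23 (2.27 as deposited). These were the largest changes among alpha chains. Neither gene overlapped between genotypes, and 83.6% of all kept genes also had every transgenic column above every wildtype column. Lama5, the broad epithelial and endothelial chain, had 27.7 RPKM in transgenic and 10.002 RPKM in wildtype libraries and changed by 0.29. Lama1 changed by 0.33 and Lama4, a chain of vessels, by 0.15.

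Set against Lama5 within a library, Lama2 gave a ratio of ratios of 3.67 (3.22 to 4.19) and Lama3 2.39 (2.07 to 2.76). For Lama1 it was 1.04 (0.943 to 1.15) and for Lama4 0.907 (0.817 to 1.01), and both intervals include 1. In the sum of alpha chains Lama2 took 19.4% in transgenic and 6.86% in wildtype columns, and Lama5 took 30.2% in transgenic and 39.1% in wildtype columns.

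Of the beta chains, Lamb2 was called as deposited and not on the relative scale. It had 34.1, 34.2 and 33.1 RPKM in transgenic columns, against 6.72, 7.10 and 7.74 RPKM in wildtype columns, a log2 change of 2.09 as deposited and 0.98 on the relative scale. Lamb3, the partner of Lama3 in hemidesmosomes, changed by 0.90, and Lamb1, the widespread chain, by 0.46. Lamb2 over Lamb1 was 1.30 in the transgenic and 0.878 in the wildtype library, so the order of these chains differed between the libraries (ratio of ratios 1.48, interval 1.31 to 1.67). Lamb3 over Lamb1 gave 1.66 (1.36 to 2.03).

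Lama3 and Lamb3 were also set against epithelial markers. Lama3 had a ratio of ratios of 0.846 (0.705 to 1.02) to Krt8, 2.82 (2.21 to 3.58) to Krt14 and 3.39 (2.89 to 3.98) to Epcam. For Lamb3 these were 0.673 (0.538 to 0.846), 2.25 (1.70 to 2.96) and 2.696 (2.20 to 3.33). For Lama5 they were 0.355 (0.308 to 0.407), 1.18 (0.957 to 1.45) and 1.42 (1.27 to 1.58). These ratios thus differed between the 3 markers, and the other epithelial markers were not used in this way. Among those, the relative ratio ran from 0.906 (Krt17) to 2.89 (Krt5) for basal markers and from 0.468 (Cldn7) to 5.78 (Elf3) for luminal markers. Lama3 had 2.97 and Lamb3 2.36.

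Stromal markers moved in the same direction as the laminins. Of the 6 fibroblast markers, 5 were called higher on the relative scale, beside 3.29% of all kept genes. These 6 markers summed to 1173 to 1175 RPKM in transgenic and 66.1 to 68.8 RPKM in wildtype columns. Of the 5 adipocyte markers, 4 were called higher, with sums of 888 to 896 RPKM in transgenic and 63.7 to 66.2 RPKM in wildtype columns. None of the 7 endothelial markers was called, with sums of 174 to 178 RPKM in transgenic and 45.7 to 49.3 RPKM in wildtype columns. The 5 skeletal muscle markers summed to 18.1 to 20.7 RPKM in transgenic and 68.3 to 76.6 RPKM in wildtype columns, nearly all of it Acta1, which was called lower, and Ckm, Myh4, Myh1 and Tnnt3 were at 0 in every wildtype column. The part of these cell types in the changes of Lamc3, Lama2 and Itga7 was not tested.

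**Figure D5:**
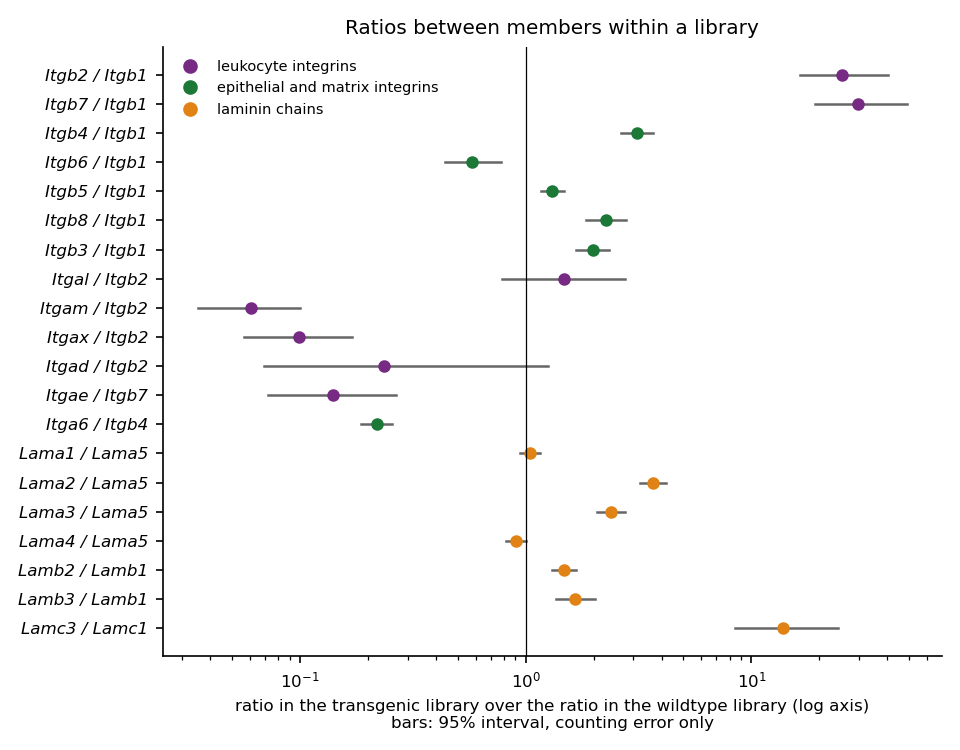
Ratios between members within a library, given as the transgenic over the wildtype ratio on a log axis, with 95% intervals for counting error. Itgb7 and Itgb2 over Itgb1 lie at 29.6 and 25.2, Itgam over Itgb2 at 0.0605, and Lama1 and Lama4 over Lama5 have intervals that include 1.

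Among the other matrix ligands and basement membrane components, 11 of 12 were kept, 1 was called higher on the relative scale and 2 lower. Col18a1, a collagen of basement membranes, had 27.2 RPKM in transgenic and 1.47 RPKM in wildtype libraries (relative log2 change 2.42). Spp1 (osteopontin), a ligand of Itgav integrins that is secreted into milk, had 57.7 RPKM in transgenic and 849 RPKM in wildtype libraries (-4.98), and Tnc (tenascin C), a ligand of Itga9 and Itga8, had 3.75 RPKM in transgenic and 14.3 RPKM in wildtype libraries (-2.51). The network collagen Col4a1 changed by 1.17 and nidogen 1 (Nid1), which links laminin to it, by 1.07, neither of them a call. On RPKM as deposited 7 of these genes were called higher and 1 lower. Among all kept genes, 3.29% were called higher and 2.87% lower on the relative scale, and 16.1% and 1.23% as deposited.

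The partners of Itga6 and Itgb4 in hemidesmosomes and the other laminin receptors held no call among 6 on the relative scale and 3 higher as deposited. Plec (plectin), which binds Itgb4 to keratin filaments, changed by 1.36 and Col17a1, a hemidesmosome collagen, by 1.02. Of the 25 genes for integrin activation and focal adhesion, all kept, 2 were called higher and 0 lower, and 13 lay above 0 and 12 below. The 2 were Fermt3 (kindlin 3), which activates integrins in blood cells, with 24.5 RPKM in transgenic and 0.922 RPKM in wildtype libraries (2.64), and Parvg, the parvin of blood cells, with 14.9 RPKM in transgenic and 0.494 RPKM in wildtype libraries (2.36). On RPKM as deposited 7 of the 25 were called higher. Of all kept genes, 3.29% were called higher on the relative scale and 16.1% as deposited.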

How the data were processed

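RNA from mammary tissue slides of 3 transgenic and 3 wildtype samples was sequenced by the authors after ribosomal RNA depletion. Per the labels, reads were aligned to GRCm38 with TopHat2 (2.0.7), and the paper adds SAMMate with Ensembl gene models for the RPKM. The deposited table holds RPKM, scaled to exonic length and library size by the authors with no factor for composition, so that a few very abundant transcripts shift every other value. It also holds 4 columns of the authors' own means (RPKM), log2 changes and fold ratios, which were deposited with the table and were not used. The authors tested protein coding genes with DESeq2 at the same RPKM filter as is used here. Their threshold of size was the same number, but it was set on the fold changes of their test, together with a cut on the FDR. Here it was set on log2 changes of RPKM with a pseudocount, so the calls are not the same as theirs by design.

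RPKM are whole multiples of the value of 1 read, from which column depths and read numbers were recovered for all genes above 0, whole to within 1e-05 reads (8699 genes with the length taken from GENCODE exons on GRCm38, 9609 at another length and 3642 at 0 in every column). The summed depth was 35321617 transgenic and 10482902 wildtype reads, so values of the wildtype library are the less precise. As the columns of a genotype differed by about the counting noise, their mean was used as 1 sample, and the planned test with limma was replaced, as its design provided, by the rule of size: at least 2 RPKM in either genotype and an absolute log2 change over 2 with a pseudocount of 1. Intervals (95%) are exact conditional binomial intervals of the recovered reads. Shared exonic bases and coordinates came from the GENCODE annotation, and promoter windows from RefSeq (GRCm38.p6). Scripts were tested on simulated data and run with Python 3.11.15, numpy 2.4.6, pandas 2.3.3, scipy 1.17.1 and matplotlib 3.10.9.

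The members and the gene lists were chosen with earlier results of these data known. Every member is named, with all columns for those called on either scale. Of the lists, up to 4 called genes and a fixed set of partners are named. Alternatives were RPKM as deposited, a trimmed mean of log ratios, scaling on reads outside the milk genes, other pseudocounts, filters and thresholds, Itga4 in the other integrin group, and leaving out each column.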

Additional observations from a re-analysis of the deposited data

How the results depend on the processing

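Under the scalings, pseudocounts and filters tried, no member was called lower. On RPKM as deposited, the calls were 8 for all members, 1 for epithelial and matrix integrins and 4 for laminin chains, and the medians were 1.40 for all members, 1.51 for leukocyte integrins, 1.04 for epithelial and matrix integrins and 1.73 for laminin chains. Scaling on reads outside the milk genes gave 2 laminin calls (Lamc3 and Lama2) and medians of 0.67 for all members, 0.35 for epithelial and matrix integrins and 1.0045 for laminin chains. A pseudocount of 0.1 gave a leukocyte median of 1.38, 1 call among epithelial and matrix integrins (Itga7) and 2 among laminin chains. With a pseudocount of 5, 0 members were called, among them 0 leukocyte integrins and 0 laminin chains, and the laminin median was 0.39. At a minimum of 5 RPKM the leukocyte median was 2.96. At a threshold of 1, 8 members were called higher and 3 lower, of which 2 higher and 3 lower were epithelial and matrix integrins and 3 higher were laminin chains. With Itga4 among the matrix integrins the leukocyte median was 1.83. The trimmed mean of log ratios moved 0 of the 36 members by more than the counting error of their ratios. Leaving out each column in turn left the calls at 4, 3, 0 and 1 for all members, leukocyte integrins, epithelial and matrix integrins and laminin chains, with medians of 0.35 to 0.39, 0.64 to 0.77, -0.018 to 0.082 and 0.59 to 0.72. Members with a sign other than on the relative scale numbered 5 as deposited (Itga3, Itga6, Itga11, Itgb1 and Itgb5), 2 outside the milk genes, and 2 and 1 without the second and the third wildtype column. No paired analysis was possible because the columns of a genotype were counted as 1 library and the result comes from no test, and the limma fits were not run for the same reason. Over all genes, 431 were called higher and 377 lower, against 2106 and 161 as deposited, 1286 and 587 with a pseudocount of 0.1, 62 and 171 with a pseudocount of 5, 2138 and 1518 at a threshold of 1, and 712 higher outside the milk genes. The wildtype library held 24, 22, 20 and 16 reads of the called genes Itgal, Itgb2, Itgb7 and Lamc3, and as few or fewer of the uncalled Itgae (24), Itga2 (12), Itga2b (12) and Itgad (3), which limits their ratios.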

Other observations

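Further ratios within a library were chosen after the values of the members had been seen. Itgal over Itgam was 8.50 in the transgenic and 0.349 in the wildtype library, a ratio of ratios of 24.4 (95% interval 14.9 to 40.9, counting error only), so the more abundant of these alpha chains was Itgal in the transgenic and Itgam in the wildtype library. Itga4 over Itgb7 was 0.291 in the transgenic and 5.08 in the wildtype library (0.0573, interval 0.0346 to 0.0897). Against the macrophage receptor Csf1r, Itgam had a ratio of ratios of 0.247 (0.182 to 0.337) and Itgax 0.406 (0.287 to 0.582). Itgal kept about the same ratio to the T cell receptor chain Cd3e, with 0.290 in the transgenic and 0.3001 in the wildtype library, but the interval of the ratio of ratios (0.494 to 1.86) is wide, since the wildtype library held 24 and 18 reads of these genes. Itgb7 over the B cell receptor chain Cd79a was 0.474 in the transgenic and 3.54 in the wildtype library (0.134, interval 0.0254 to 0.452), where the wildtype library held 3 reads of Cd79a. Itga6 over Itgb1 was 0.733 in the transgenic and 1.08 in the wildtype library (0.681, interval 0.635 to 0.729).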
